A study of Homo sapiens with 9 samples.

Results

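The genes described here are the collagen chains and 9 genes whose products fold and modify collagen in the endoplasmic reticulum. Chains were taken by symbol, as every gene that a single platform symbol names as a COL gene with a number, the letter A and a second number. CRTAP, P3H1, P4HA1, P4HA2, P4HA3, PLOD1, PLOD2, PLOD3 and SERPINH1 were added to them by name. This gave 52 genes of the 19775 measured, 43 of them chains and 9 processing genes, on 130 of the 41091 probe sets with a single symbol. COL17A1, COLGALT2 and DDR1 were not analysed here, because they had no probe set of their own.

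Hec50 is an established human cell line of endometrial cancer, and its total RNA was hybridised to 9 one-colour Affymetrix arrays. Cells given a mimic of miR-200c filled 3 arrays, cells given a scrambled negative control RNA filled 3, and mock transfected cells filled 3. The mimic and the scrambled RNA were used at 60 nM for 48 h, and the labels give neither dose nor time for the mock cells. The design asks which genes answer to miR-200c in an aggressive cancer. All arrays come from 1 cell line. Nothing in the labels tells whether the replicates of a group were separate cultures, so the p-values rest on the spread of these 9 samples, and part or all of it may be technical.

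Collagens are triple helices of 3 alpha chains, with glycine recurring along the whole helical stretch of each chain. Fibrillar chains such as those of types I, III and V form the tensile fibrils of connective tissue, while type IV forms the sheet of the basement membrane on which an epithelium stands. Chains are hydroxylated on proline and lysine while still unfolded, a chaperone holds the finished helix, and the large trimer leaves the cell through enlarged transport vesicles. In the uterus the stroma makes most of the fibrillar collagen, and the glands rest on a type IV network. The miR-200 family is abundant in epithelia and acts on the mRNA of ZEB1, a repressor of the epithelial adhesion gene CDH1.

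The mature sequence of the RNA that the mimic copies is shown because its seed defines the family. Capitals mark the seed, bases 2 to 8. It is credited to RefSeq on GRCh38.p14, where the mature RNA lies at chr12:6963742-6963764 on the plus strand.
hsa-miR-200c-3p: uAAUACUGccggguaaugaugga
Its seed is shared by hsa-miR-200b-3p and hsa-miR-429, and its perfect complement reads CAGUAUU. Whether the transcripts of the collagen genes carry this complement was not analysed here.

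Type IV chains are encoded in neighbouring pairs that start from a common stretch of DNA and run in opposite directions, which makes these stretches useful beside the values of the pairs. The bases before the start of COL4A5 lie at chrX:108439588-108439837, on the plus strand, and those between the starts of COL4A1 and COL4A2 lie at chr13:110307158-110307283, on the plus strand (RefSeq, GRCh38.p14). Capitals mark the bases that fall within the promoter windows, 250 bases before to 50 after a start, of both genes of a pair.
COL4A5: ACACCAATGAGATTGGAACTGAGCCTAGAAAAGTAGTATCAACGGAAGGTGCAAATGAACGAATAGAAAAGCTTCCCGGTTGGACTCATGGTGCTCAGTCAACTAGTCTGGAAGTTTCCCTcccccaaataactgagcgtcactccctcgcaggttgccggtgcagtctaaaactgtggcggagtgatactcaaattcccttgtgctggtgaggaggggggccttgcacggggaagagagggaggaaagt
COL4A2: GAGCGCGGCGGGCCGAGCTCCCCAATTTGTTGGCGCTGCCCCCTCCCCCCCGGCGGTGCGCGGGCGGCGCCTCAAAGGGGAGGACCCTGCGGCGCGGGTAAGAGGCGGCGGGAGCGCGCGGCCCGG
The windows of COL4A5 and COL4A6 share 121 bases, and 379 bases separate their starts. Those of COL4A1 and COL4A2 share 226 bases, with 126 between the starts. In cells given the mimic COL4A5 was lower than in both controls while COL4A6, COL4A1 and COL4A2 passed no test, as described below with their values.

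A search was made for CACCTG or, on the other strand, CAGGTG, the letters to which ZEB1 is known to bind. They occurred in 20.6% of all 27305 promoter windows and in 5 of the 39 members that have a window (12.8%). None of the 3 higher and none of the 6 lower members with a window held them, counted for the mimic against the scrambled control. This describes windows of fixed length and says nothing about binding.

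All values below are log2 expression centred by the authors on the median of the 9 arrays, so they give differences between arrays and no level, and the base of the logarithm is taken to be 2. A level class could be recovered from the precision of the stored numbers. By it, 12 chains lay at 8 or more on the original log2 scale, 28 from 4 to 8 and 3 below 4, against 8 and 1 processing genes in the upper and middle class. The share at 8 or more was 27.9% of the chains and 43% of all genes. ZEB1 was at -1.51, -1.52 and -1.46 in mimic arrays, against 0.04, 0.00 and 0.17 in scrambled control arrays (log2 change -1.57, SE 0.06, limma adjusted p = 1.55e-07), and CDH1 was higher by 3.26 (SE 0.12, adjusted p = 8.67e-08). The epithelial markers EPCAM, KRT8, KRT18 and KRT7 and the Mullerian factor PAX8 stood at a level of 8 or more. The other epithelial markers, CDH1 and KRT19, lay between 4 and 8, as did ESR1 and PGR. No leukocyte or endothelial marker with a level class reached 8, PTPRC and CDH5 were below 4, and the endothelial marker KDR could not be placed. The fibroblast markers PDGFRA and THY1 were at 8 or more, and PDGFRB, FAP, DCN and LUM from 4 to 8. Of the 6 fibroblast markers 1, PDGFRA, was lower with the mimic (-0.41 on the log2 scale against the scrambled control), 0 higher. Of 4 smooth muscle markers, which lay from 4 to 8, ACTA2 was lower (-0.23). In the same comparison 4 of 6 epithelial markers were higher, 0 of 4 leukocyte and 0 of 5 endothelial markers were called, and PAX8 was lower (-0.21). Of all genes 7.63% were higher and 6.99% lower in that comparison. Mimic cells were higher than mock cells in the epithelial markers CDH1 (3.55), EPCAM (1.19) and KRT18 (0.43), and in CD3E (0.20) and LUM (0.26). They were lower in PAX8 (-0.55), PDGFRA (-0.24) and ACTA2 (-0.26). Scrambled control cells were higher than mock cells in CD3E (0.28) and lower in PAX8 (-0.34). In bulk RNA, fewer cells of a type and less RNA per cell cannot be told apart. The part of these markers in the results was not tested.

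With the mimic, a few members moved, in both directions. Against the scrambled control 4 of the 52 genes were higher, namely COL12A1, COL14A1, COL24A1 and P4HA2, and 7 were lower, namely CRTAP, SERPINH1, COL6A1, COL6A3, COL18A1, COL4A5 and COL27A1. These are 7.69% and 13.5% of the members, beside 7.63% of all genes higher and 6.99% lower at the same limma adjusted p under 0.05. The share higher is thus close to that of all genes. Only 3 of the 11 changes exceeded 1.5-fold, and the median over the members was -0.02, beside -0.01 over all genes.

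Against mock transfected cells 5 members were higher and 14 lower, which is 9.62% and 26.9%, beside 8.35% and 10.2% of all genes. Members lower than in mock cells, but with no call against the scrambled control, were COL1A1, COL5A1, COL6A2, COL7A1, COL8A1, P4HA1 and PLOD3, and COL23A1 was the added member that was higher. Both comparisons use the same 3 mimic arrays.

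Cells given the scrambled RNA also differed from mock cells. In them 2 members were higher (COL11A2 and COL23A1) and 10 lower (CRTAP, SERPINH1, P4HA2, PLOD1, PLOD3, COL1A1, COL6A1, COL6A3, COL7A1 and COL18A1), beside 2.76% and 5.24% of all genes. The lower group is 19.2% of the members, and none of its changes exceeded 1.5-fold. The higher group was not stable: COL11A2 and COL23A1 both lost their call without any 1 of the 3 mock arrays, and likewise without scrambled replicate 1 or 2.

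The calls lay mainly among members of the upper level class. Of the 20 members at a level of 8 or more, 3 were higher and 7 lower with the mimic against the scrambled control, beside 11.3% and 12% of the 8499 genes of that class. Against mock 3 were higher and 11 lower (15% and 55%), beside 11.4% and 17.3%, and between scrambled control and mock 0 were higher and 10 lower, beside 4.41% and 9.45%. In the class from 4 to 8, 1 of 29 members was higher and 0 lower with the mimic against the scrambled control, beside 5.76% and 3.74% of 9040 genes. Against mock 2 of the 29 were higher and 3 lower, beside 7.11% and 5.85%, and between scrambled control and mock 2 were higher and 0 lower, beside 1.7% and 2.49%.

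**Figure D1:**
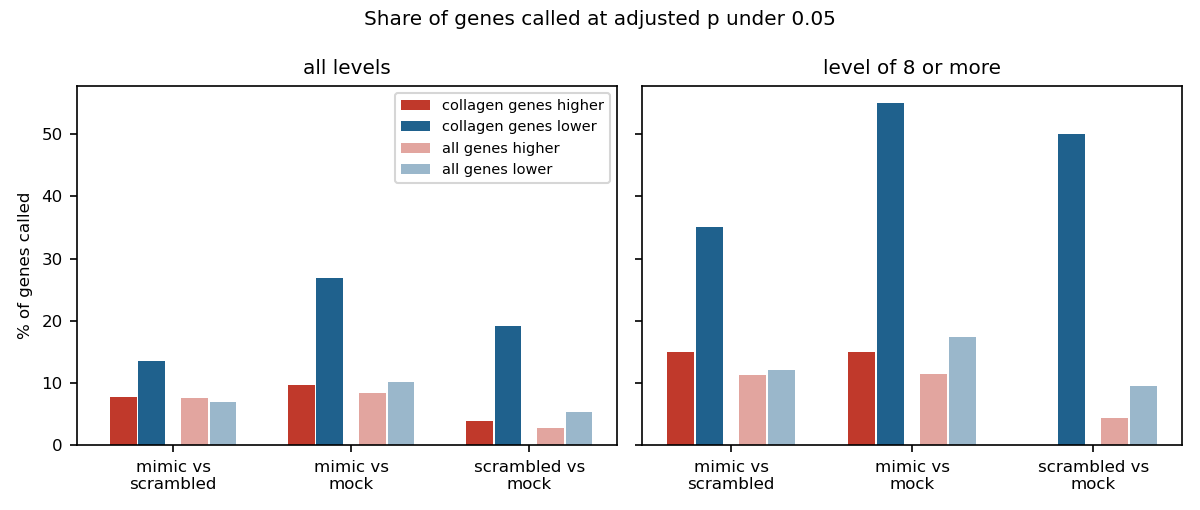
Percent of genes called higher or lower (vertical axis) in the 3 comparisons, for the collagen genes (full colour, left bars) and for all genes (pale, right bars). The left panel covers all 52 and 19775 genes and the right panel the 20 and 8499 genes at a level of 8 or more, where 55% of the collagen genes were lower with the mimic than in mock cells.

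RNA integrity was set beside the comparisons with mock. The 3′ minus 5′ difference of the ACTB control probe sets, in centred log2 values, averaged 0.02 ± 0.08 in mimic arrays, 0.10 ± 0.04 in scrambled control arrays and -0.18 ± 0.03 in mock arrays (SD, n = 3 each). The same difference for GAPDH averaged -0.02 ± 0.03, 0.01 ± 0.02 and 0.03 ± 0.04. The mock arrays thus stood below both other groups for ACTB, and the comparisons with mock hold the larger shares of members lower. The part of this in those results was not tested.

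Among the processing genes CRTAP changed most. It encodes cartilage-associated protein, the partner of the prolyl 3-hydroxylase P3H1 in a complex that modifies single prolines of types I and II collagen. CRTAP was at -0.79, -0.81 and -0.81 in mimic arrays, against 0.05, -0.09 and 0.02 in scrambled control arrays and 0.18, 0.18 and 0.20 in mock arrays. The 3 groups did not overlap. It was 1.74-fold lower in mimic than in scrambled control cells (log2 change -0.80, SE 0.05, adjusted p = 1.76e-06) and 1.99-fold lower than in mock cells (-0.99, adjusted p = 6.26e-07). Scrambled control cells were lower than mock cells by a smaller step (-0.19, adjusted p = 0.0324), a call that was lost in 9 of 16 alternatives, among them without any 1 mock array and without scrambled replicate 2 or 3.

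All 5 probe sets of CRTAP were lower with the mimic, but by different amounts. Against the scrambled control their log2 changes were -1.06, -1.06, -0.82, -0.26 and -0.23, and 4 of the 5 passed the test over all probe sets. Against mock all 5 passed, from -1.39 to -0.47. Its partner P3H1 did not pass: it was at 0.04, -0.17 and 0.00 in mimic arrays, against -0.14, 0.00 and -0.06 in scrambled control arrays and 0.03, 0.05 and 0.20 in mock arrays (log2 change 0.02 against the scrambled control, SE 0.07, adjusted p = 0.873). The difference between the responses of the partners was not tested.

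SERPINH1 encodes HSP47, the chaperone that binds the folded procollagen helix. It was at -0.13, -0.21 and -0.42 in mimic arrays, against 0.00, 0.08 and -0.03 in scrambled control arrays and 0.36, 0.35 and 0.37 in mock arrays. The groups did not overlap, and mock arrays were highest. The log2 change was -0.27 against the scrambled control (SE 0.07, adjusted p = 0.0223) and -0.61 against mock (1.53-fold, adjusted p = 0.000141). Between scrambled control and mock it was -0.34 (adjusted p = 0.0143). The call against the scrambled control ended without mimic replicate 3 (-0.19), without scrambled replicate 1 (-0.28), without scrambled replicate 2 (-0.24) and with the 2 groups alone in the fit, and that between the controls ended without mock replicate 1 or scrambled replicate 3. It has 1 probe set.

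The alpha subunits of prolyl 4-hydroxylase, whose reaction stabilises the triple helix, did not move together. P4HA2 was at 0.39, 0.23 and 0.29 in mimic arrays, against -0.36, -0.35 and -0.24 in scrambled control arrays and 0.00, -0.05 and 0.00 in mock arrays. Mimic arrays were thus above mock arrays and scrambled control arrays below them. The gene was 1.54-fold higher than with the scrambled control (log2 change 0.62, SE 0.05, adjusted p = 2.94e-05) and higher than in mock cells (0.32, adjusted p = 0.00221), while scrambled control was below mock (-0.30, adjusted p = 0.00923). Only the 1 probe set of the 3 that lies at a level of 8 or more passed against the scrambled control, the others changed by 0.37 and -0.17, and with the mean of all 3 the change was 0.27 against the scrambled control and no longer passed against mock (0.11, adjusted p = 0.163). The mean of the 3 also ended the call between scrambled control and mock (-0.17, adjusted p = 0.0613).

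P4HA1 was at 0.00, -0.16 and -0.30 in mimic arrays, against -0.13, 0.04 and 0.00 in scrambled control arrays and 0.18, 0.10 and 0.17 in mock arrays. It was lower than in mock cells (-0.30, SE 0.07, adjusted p = 0.0158), with arrays overlapping those of the scrambled control (-0.12, adjusted p = 0.341). That call ended without mimic replicate 3 (-0.23), without mock replicate 1 (-0.29) and when both probe sets were averaged (-0.19). P4HA3, the alpha subunit in the class from 4 to 8, was at -0.06, 0.28 and 0.00 in mimic arrays, against 0.00, -0.01 and -0.02 in scrambled control arrays and 0.04, 0.15 and -0.03 in mock arrays, and passed no test.

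Lysyl hydroxylases prepare collagen for crosslinks and sugar attachment. PLOD3, which also carries glycosyltransferase activity, was at 0.08, -0.15 and 0.00 in mimic arrays, against -0.05, -0.01 and -0.06 in scrambled control arrays and 0.26, 0.32 and 0.32 in mock arrays. Mimic and scrambled control overlapped (log2 change 0.02, SE 0.06, adjusted p = 0.893), and both lay below mock (-0.32, adjusted p = 0.00264, and -0.34, adjusted p = 0.00669). PLOD1, which acts on helical lysines, was at 0.03, -0.09 and -0.02 in mimic arrays, against -0.15, 0.00 and -0.18 in scrambled control arrays and 0.11, 0.08 and 0.16 in mock arrays. It passed in the comparison of scrambled control with mock (-0.22, adjusted p = 0.0393), a call lost in 9 of 16 alternatives, among them without any 1 mock array, scrambled replicate 1 or 3, or mimic replicate 3. PLOD2, which hydroxylates the telopeptides, was at -0.05, -0.07 and -0.09 in mimic arrays, against -0.03, 0.17 and 0.06 in scrambled control arrays and 0.08, 0.05 and 0.09 in mock arrays. Its mimic arrays lay below all others, yet the changes of -0.14 and -0.15 did not pass (SE 0.05 each, adjusted p = 0.112 and 0.0828). The change against the scrambled control passed without scrambled replicate 1 (-0.19) and that against mock without scrambled replicate 2 (-0.15), and both passed when adjusted over the genes at a level of 8 or more (adjusted p = 0.0444 and 0.0324).

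**Figure D2:**
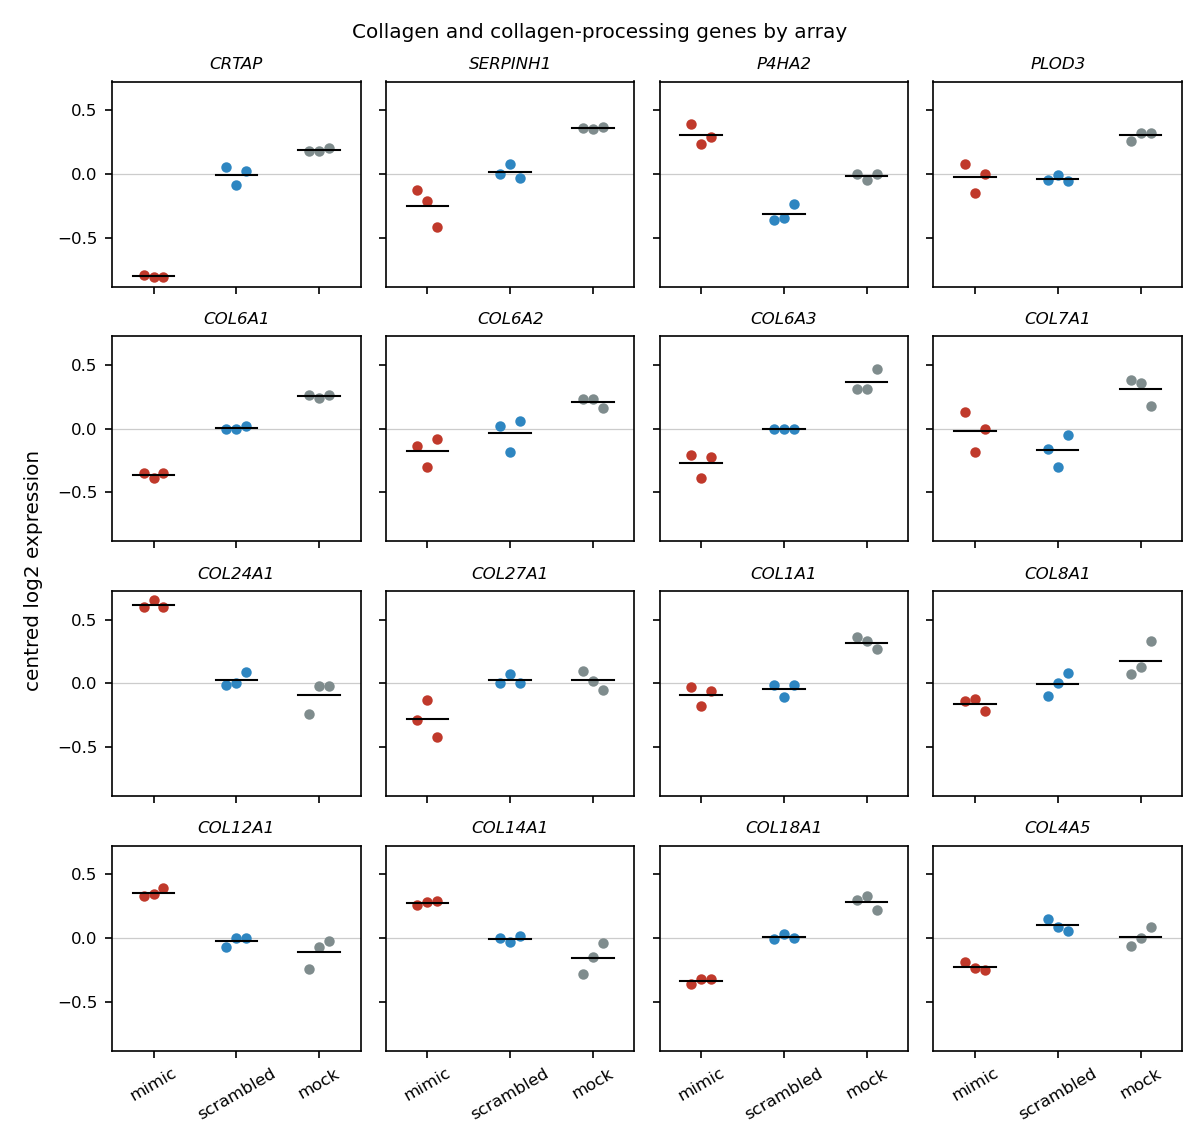
Centred log2 expression (vertical axis) of 16 genes in each array, with mimic, scrambled control and mock arrays from left to right and a black line at each group's mean. CRTAP stands at -0.79 to -0.81 in the mimic arrays, and COL24A1 at 0.60 to 0.65.

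Type VI collagen is a beaded filament close to basement membranes, built of the products of COL6A1, COL6A2 and COL6A3. Counted by collagen type, and not by the wider classes, it had the most called chains. COL6A1 was at -0.35, -0.39 and -0.35 in mimic arrays, against 0.00, 0.00 and 0.02 in scrambled control arrays and 0.26, 0.24 and 0.26 in mock arrays. The groups lay apart, in the order mimic, scrambled control, mock from low to high. The log2 change was -0.37 against the scrambled control (SE 0.04, adjusted p = 0.000115), -0.62 against mock (1.54-fold, adjusted p = 3.87e-06) and -0.25 between the controls (adjusted p = 0.00513).

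This value of COL6A1 rests on 1 of its 8 probe sets, the only one at a level of 8 or more. The other 7 changed by -0.21 to 0.28 against the scrambled control and none of them passed, and the mean of all 8 was -0.02 (adjusted p = 0.915). Against mock 3 of the 8 passed, at -0.77, -0.76 and -0.62, and the mean of all 8 was -0.37 (adjusted p = 0.00928). On 3 of the probe sets from 4 to 8 scrambled replicate 2 was the lowest of the 9 arrays, at -0.92, -0.92 and -0.70.

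COL6A3 was at -0.21, -0.39 and -0.22 in mimic arrays, against 0.00 in each scrambled control array and 0.31, 0.31 and 0.47 in mock arrays, so that its order was that of COL6A1. Its log2 change was -0.27 against the scrambled control (SE 0.06, adjusted p = 0.0121) and -0.64 against mock (1.55-fold, adjusted p = 5.07e-05), and scrambled control was below mock (-0.36, adjusted p = 0.00666). COL6A2, the gene next to COL6A1 on chromosome 21, was at -0.14, -0.30 and -0.08 in mimic arrays, against 0.02, -0.18 and 0.06 in scrambled control arrays and 0.23, 0.23 and 0.16 in mock arrays. It passed against mock alone (-0.38, SE 0.07, adjusted p = 0.00474), and its mimic and scrambled control arrays overlapped (-0.14, adjusted p = 0.268). Of its 2 probe sets 1 passed against mock (-0.69, adjusted p = 0.00341), and the other changed by -0.06 (adjusted p = 0.693). COL6A5 and COL6A6, further alpha chains of type VI that can stand in for the COL6A3 product, lay below 4 and passed no test.

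COL7A1, the chain of the anchoring fibrils under stratified epithelia, was at 0.13, -0.18 and 0.00 in mimic arrays, against -0.16, -0.30 and -0.05 in scrambled control arrays and 0.38, 0.36 and 0.18 in mock arrays. Mimic and scrambled control overlapped, with mock above both (mimic against mock -0.32, SE 0.09, adjusted p = 0.0283, and scrambled control against mock -0.47, adjusted p = 0.0109). The first of these calls ended without mock replicate 1 (-0.29) or 2 (-0.30), without mimic replicate 2 (-0.24) or 3 (-0.33), and when both probe sets were averaged (-0.20). Averaging gave -0.31 for scrambled control against mock, which still passed.

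COL18A1 encodes a basement membrane collagen with heparan sulphate chains, whose end fragment is endostatin. It was at -0.36, -0.32 and -0.32 in mimic arrays, against -0.01, 0.03 and 0.00 in scrambled control arrays and 0.30, 0.33 and 0.22 in mock arrays, with no overlap between the groups. The log2 change was -0.34 against the scrambled control (SE 0.05, adjusted p = 0.000452), -0.61 against mock (1.53-fold, adjusted p = 8.49e-06) and -0.28 between the controls (adjusted p = 0.00578, and -0.22 with adjusted p = 0.0683 for the mean of both probe sets). These values rest on 1 of the 2 probe sets. The other changed by -0.15 against the scrambled control and -0.33 against mock without passing (adjusted p = 0.502 and 0.0936). The mean of both still passed against the scrambled control (-0.25, adjusted p = 0.0313). The other multiplexin, COL15A1, passed no test and had 1 of the largest standard errors among the members (0.12).

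Of the 6 type IV chains COL4A5 alone was called (16.7% lower against either control, beside 6.99% and 10.2% of all genes). Its product joins those of COL4A3 and COL4A4, or that of COL4A6, in specialised basement membranes. COL4A5 was at -0.19, -0.23 and -0.25 in mimic arrays, against 0.15, 0.09 and 0.06 in scrambled control arrays and -0.06, 0.00 and 0.09 in mock arrays. Both controls overlapped, and the mimic arrays lay below them (log2 change -0.32, SE 0.05, adjusted p = 0.00159 against the scrambled control, and -0.23, adjusted p = 0.00962 against mock). Of its 2 probe sets the one at 8 or more passed against the scrambled control, and the mean of both did not pass against mock (-0.12, adjusted p = 0.232).

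COL4A6, which starts from the same stretch of DNA as COL4A5, changed by -0.10 against the scrambled control (SE 0.07, adjusted p = 0.398). The difference between these neighbours was not tested, and COL4A6 is in the class from 4 to 8, below that of COL4A5. COL4A1, a ubiquitous chain of the basement membrane, was at 0.05, -0.11 and 0.19 in mimic arrays, against -0.01, 0.02 and 0.03 in scrambled control arrays and -0.09, -0.01 and -0.08 in mock arrays. Its partner COL4A2 was at 0.02, -0.01 and 0.17 in mimic arrays, against -0.02, 0.03 and -0.01 in scrambled control arrays and -0.03, 0.05 and 0.09 in mock arrays. The groups overlapped for both, and the log2 changes against the scrambled control were 0.03 and 0.06 (SE 0.07 and 0.06, adjusted p = 0.84 and 0.562).

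Among 11 fibrillar chains COL24A1 was higher and COL27A1 lower with the mimic against the scrambled control, both minor fibrillar collagens. Each is 9.09% of the chains, beside 7.63% of all genes higher and 6.99% lower. COL24A1 was at 0.60, 0.65 and 0.60 in mimic arrays, against -0.01, 0.00 and 0.09 in scrambled control arrays and -0.24, -0.02 and -0.02 in mock arrays. It was 1.5-fold higher than with the scrambled control (log2 change 0.59, SE 0.06, adjusted p = 9.82e-05) and 1.63-fold higher than in mock cells (0.71, adjusted p = 2.86e-05), while the controls did not pass against each other (0.12, adjusted p = 0.274). It has 1 probe set, at a level from 4 to 8, and kept both calls in all 15 alternatives.

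COL27A1 was at -0.29, -0.13 and -0.42 in mimic arrays, against 0.00, 0.07 and 0.00 in scrambled control arrays and 0.10, 0.02 and -0.05 in mock arrays. The mimic arrays lay below both controls, which overlapped (-0.30, SE 0.07, against each, adjusted p = 0.0152 against the scrambled control and 0.0125 against mock). Of 5 probe sets 3 passed against the scrambled control, at -0.40, -0.30 and -0.25. The call against the scrambled control ended without scrambled replicate 2 (-0.28) and without mimic replicate 3 (-0.23), and that against mock without mock replicate 1 (-0.26).

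COL1A1, the major chain of type I collagen, was at -0.03, -0.18 and -0.06 in mimic arrays, against -0.01, -0.11 and -0.01 in scrambled control arrays and 0.36, 0.33 and 0.27 in mock arrays. Mimic and scrambled control overlapped (-0.05, SE 0.05, adjusted p = 0.643), and both were below mock (-0.41, 1.33-fold, adjusted p = 0.000458, and -0.36, adjusted p = 0.00401). Against mock 3 of its 5 probe sets passed, at -0.73, -0.48 and -0.38, and the other 2 changed by -0.02 and -0.01.

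Its partner COL1A2 was at -0.25, 0.16 and 0.11 in mimic arrays, against 0.00, 0.43 and 0.00 in scrambled control arrays and -0.12, 0.00 and -0.08 in mock arrays. These arrays overlapped, and COL1A2 passed no test. COL3A1, the chain of the thin fibrils of elastic organs, was at 0.03, -0.21 and 0.00 in mimic arrays, against 0.05, 0.15 and 0.07 in scrambled control arrays and 0.05, -0.14 and -0.21 in mock arrays. It passed no test either (-0.15 against the scrambled control, SE 0.08, adjusted p = 0.262).

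Type V collagen limits the width of fibrils. COL5A1 was at -0.05, -0.13 and -0.01 in mimic arrays, against 0.03, -0.12 and -0.11 in scrambled control arrays and 0.16, 0.07 and 0.11 in mock arrays, and passed narrowly against mock (-0.18, SE 0.06, adjusted p = 0.0461), a call lost in 11 of 15 alternatives, among them without any 1 array other than scrambled replicate 1. COL5A2 was at -0.01, -0.11 and -0.01 in mimic arrays, against -0.02, 0.08 and 0.07 in scrambled control arrays and -0.06, 0.03 and 0.09 in mock arrays, and passed no test. COL11A2 changed by 0.25 between scrambled control and mock (SE 0.06, adjusted p = 0.0305). No probe set of COL11A2 passed on its own (0.26 and 0.24, adjusted p = 0.0761 and 0.239).

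The fibril-associated collagens bind to the surface of fibrils and link them to other matrix. Of 10 such chains COL12A1 and COL14A1 were higher with the mimic and 0 were lower, against either control. These are 20% and 0%, beside 7.63% and 6.99% of all genes against the scrambled control and 8.35% and 10.2% against mock. COL12A1, COL14A1 and COL9A3 are the chains of this class at a level of 8 or more. COL12A1 was at 0.33, 0.35 and 0.39 in mimic arrays, against -0.07, 0.00 and 0.00 in scrambled control arrays and -0.24, -0.07 and -0.02 in mock arrays. The mimic arrays lay above both controls (log2 change 0.38, SE 0.06, adjusted p = 0.0012 against the scrambled control, and 0.47, adjusted p = 0.0003 against mock).

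For COL12A1 the probe set in the upper level class moved least among those that passed. Against the scrambled control 3 of its 5 probe sets passed, at 1.15, 0.72 and 0.38, and the first 2 of these lie from 4 to 8. On the probe set with the change of 1.15 the mimic arrays were at 1.13, 0.98 and 0.99, against -0.06, -0.29 and 0.00 in scrambled control arrays and -0.20, -0.08 and 0.00 in mock arrays. The remaining 2 changed by 0.10 and 0.00.

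COL14A1 was at 0.26, 0.28 and 0.29 in mimic arrays, against 0.00, -0.03 and 0.02 in scrambled control arrays and -0.28, -0.15 and -0.04 in mock arrays. The mimic arrays again lay above all others (0.28, SE 0.06, adjusted p = 0.00769 against the scrambled control, and 0.44, adjusted p = 0.000495 against mock). All 4 probe sets were higher against the scrambled control, by 0.13 to 0.28, but 1 passed, and the mean of the 4 missed the threshold (0.20, adjusted p = 0.0593). Against mock that mean was 0.21 (adjusted p = 0.0442).

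COL8A1, a short chain collagen found in vessel walls, was at -0.14, -0.12 and -0.22 in mimic arrays, against -0.10, 0.00 and 0.08 in scrambled control arrays and 0.07, 0.13 and 0.33 in mock arrays. It was called against mock (-0.33, SE 0.07, adjusted p = 0.0082) on 1 of 3 probe sets, and the mean of the 3 was -0.06 (adjusted p = 0.436). The transmembrane chain COL23A1 changed by 0.16 with the mimic and by 0.19 with the scrambled RNA, both against mock (SE 0.05, adjusted p = 0.0456 and 0.0355), with no probe set that passed on its own. These calls were lost in 10 and 9 of 15 alternatives. Among these, both ended without any 1 mock array, scrambled replicate 2 or mimic replicate 3, the first also without mimic replicate 1 or 2, and the second without scrambled replicate 1. The other transmembrane chains measured, COL13A1 and COL25A1, passed no test as genes, nor did COL26A1 and COL28A1. For COL13A1, 1 probe set passed against mock, with the mimic (-0.40, adjusted p = 0.0024) and with the scrambled RNA (-0.58, adjusted p = 0.00172).

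**Figure D3:**
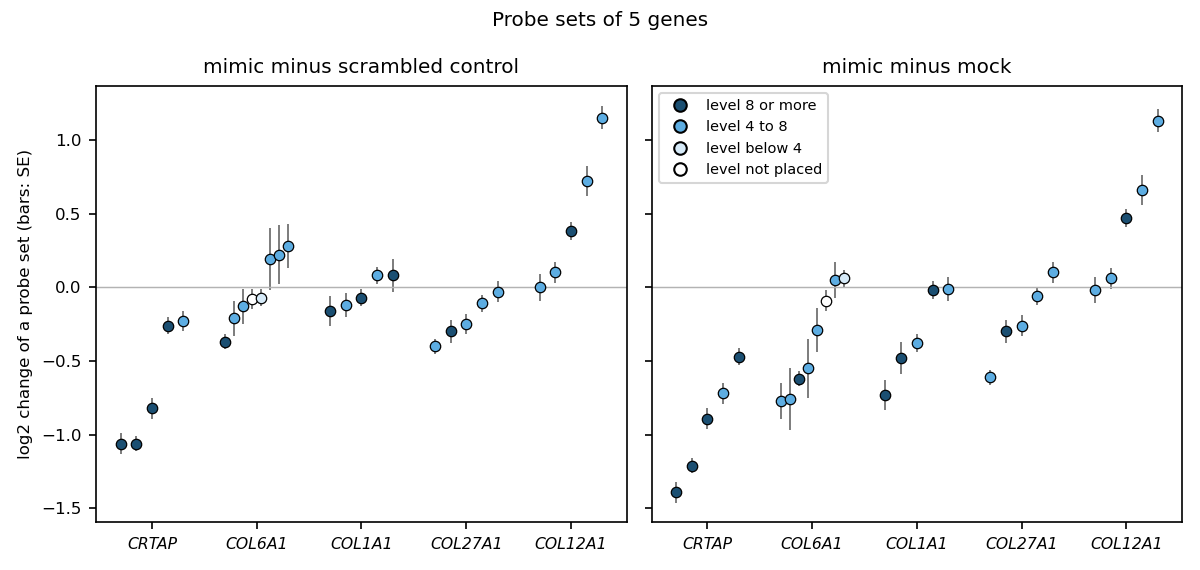
Log2 change of each probe set of 5 genes (vertical axis, bars are standard errors), for mimic minus scrambled control on the left and mimic minus mock on the right, with darker fill for a higher level class. The probe sets of CRTAP are all below 0, from -1.06 to -0.23 on the left, while those of COL6A1 lie on both sides of 0.

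Counted by probe set, 6 of the 130 were higher and 12 lower with the mimic against the scrambled control, beside 4.52% and 4.15% of all probe sets. Against mock the counts were 6 and 25, beside 5.07% and 6.98%, and between scrambled control and mock 0 and 16, beside 1.23% and 2.84%. Members with no call covered a narrow range. The 41 that did not pass against the scrambled control changed by -0.15 to 0.15, the 33 against mock by -0.23 to 0.13, and the 40 between the controls by -0.24 to 0.21, with a median SE of 0.07 in each.

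**Figure D4:**
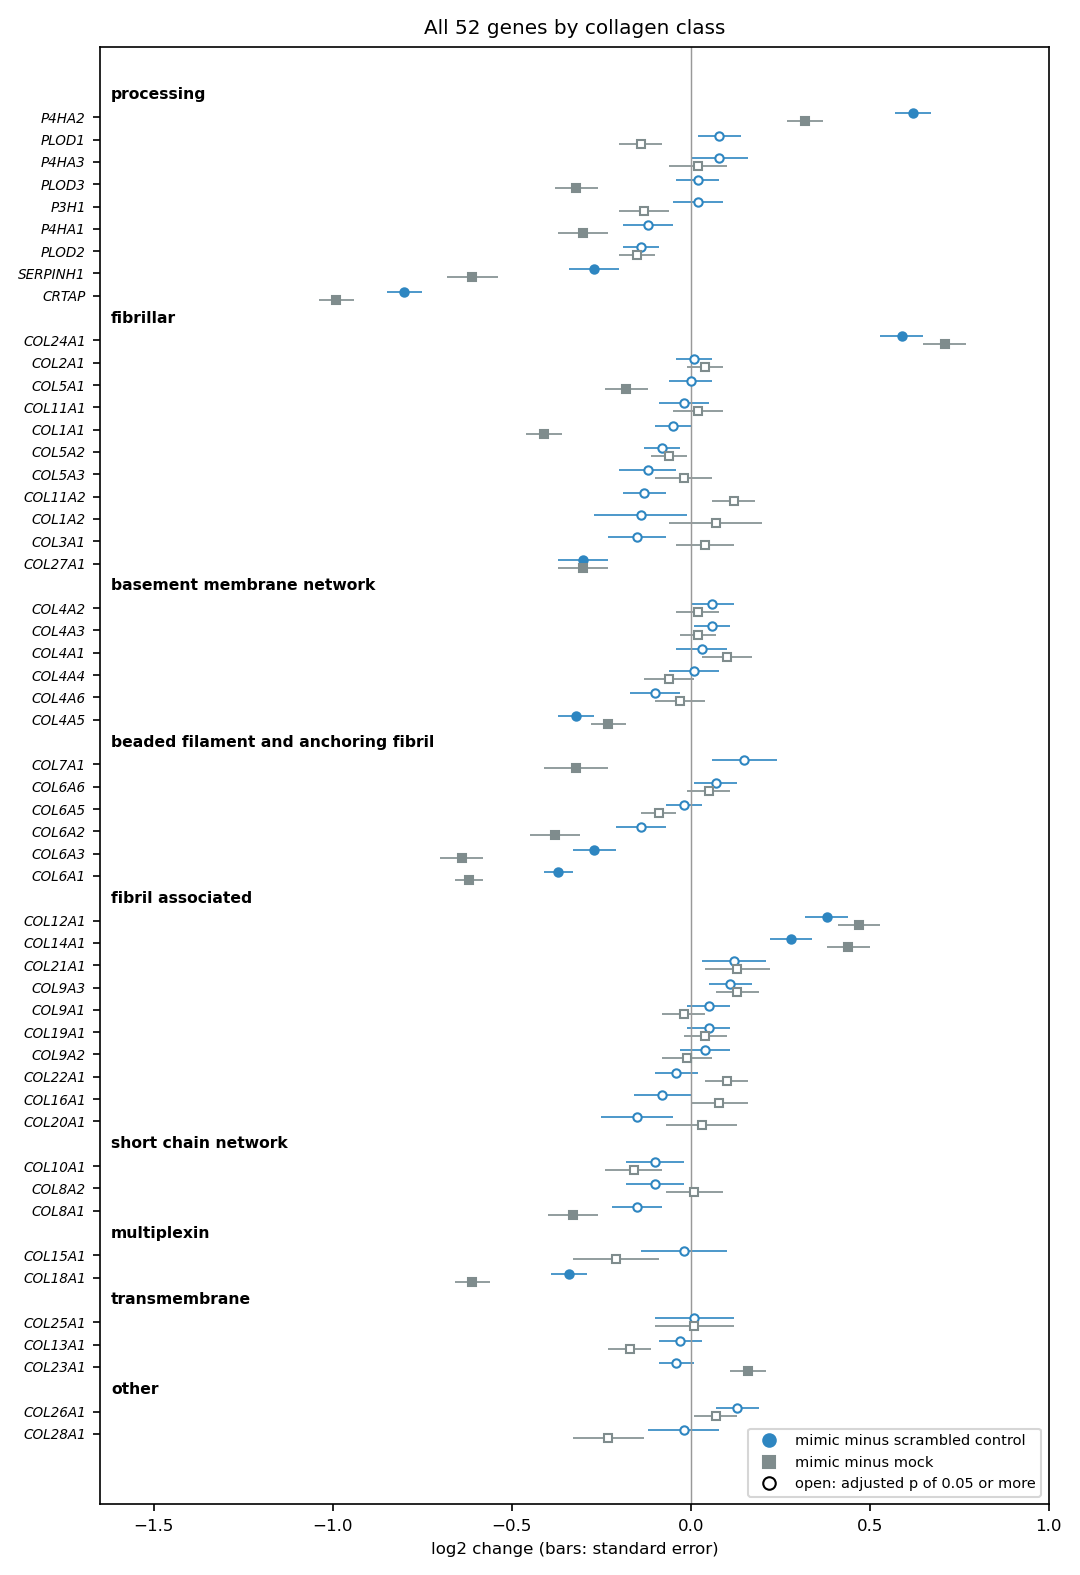
Log2 change (horizontal axis, bars are standard errors) of all 52 genes, grouped by collagen class, for mimic minus scrambled control (circles) and mimic minus mock (squares). Filled symbols passed the test, and CRTAP lies farthest below 0, at -0.80 and -0.99.

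Genes that act on collagen before and after these steps were taken from 7 lists and are given for the mimic against the scrambled control, with percentages of all genes as above. Among 11 further folding and modification genes 1 was higher and 2 were lower. P3H2, a prolyl 3-hydroxylase of basement membrane collagen, was higher by 0.54 on the log2 scale (adjusted p = 9.87e-05). FKBP14, a prolyl isomerase, and P3H3 were lower (-0.28, adjusted p = 0.00335, and -0.23, adjusted p = 0.0272, the second with no probe set that passed on its own), and the isomerase gene FKBP10 changed by -0.29 without passing (adjusted p = 0.0852). Against mock 1 of these 11 was higher and 6 were lower (9.09% and 54.5%), beside 8.35% and 10.2% of all genes. Among all genes at a level of 8 or more the shares were 11.4% and 17.3%. P3H3 and CREB3L1 of this list lie from 4 to 8. In the other lists 0% to 30.8% were lower than in mock cells. Of the 6 lower, P4HB, COLGALT1, PPIB and FKBP10 did not pass against the scrambled control (-0.04, -0.06, 0.02 and -0.29). In scrambled control cells P4HB and P3H3 were also below mock (-0.29 and -0.24, adjusted p = 0.00775 and 0.0423).

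Among 14 secretion genes 3 were higher and 1 was lower, and the changes ran to both extremes. SEC23A, a subunit of the inner coat of COPII transport vesicles, was at -1.11, -1.14 and -1.23 in mimic arrays, against 0.23, 0.28 and 0.32 in scrambled control arrays and 0.00, -0.02 and 0.01 in mock arrays. It was 2.71-fold lower in mimic than in scrambled control cells (-1.44, adjusted p = 6.76e-08). Its paralogue SEC23B was higher (0.28, adjusted p = 0.00141), as was the GTPase gene SAR1B (0.20, adjusted p = 0.00891). The cargo adaptor gene SEC24A was higher by 0.95 (adjusted p = 9.66e-06), with 0.28, 0.45 and 0.34 in mimic arrays, against -0.52, -0.75 and -0.52 in scrambled control arrays and -0.08, 0.00 and 0.03 in mock arrays. For SEC24A and SAR1B the scrambled control also lay below mock (-0.58 and -0.19, adjusted p = 0.00156 and 0.02), and for SEC23A above it (0.28, adjusted p = 0.00703). Mimic and mock did not differ for SAR1B (0.00, adjusted p = 0.968). SEC24A and SEC23B were higher than in mock cells (0.37 and 0.30, adjusted p = 0.00412 and 0.000948), and SEC23A was lower (-1.16, adjusted p = 2.01e-07).

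Enzymes outside the cell showed calls as well. Of 10 propeptide removal genes 2 were lower and 0 higher: ADAMTS3, a procollagen N-proteinase (-0.56, adjusted p = 0.000112), and TLL2, a tolloid-like proteinase (-0.34, adjusted p = 0.012). The procollagen proteinase enhancers PCOLCE2 and PCOLCE changed by 0.11 and -0.15 and did not pass. Of 5 crosslinking enzymes 3 were higher, LOXL3 (0.63, adjusted p = 9.99e-05), LOXL4 (0.46, adjusted p = 3.76e-05) and LOXL2 (0.30, adjusted p = 0.00755), and LOX was lower (-0.24, adjusted p = 0.0422). For LOXL2 the scrambled control was below mock (-0.46, adjusted p = 0.0024), and mimic and mock did not pass against each other (-0.16, adjusted p = 0.106). The scrambled control was also below mock for LOX (-0.43, adjusted p = 0.00579) and TLL2 (-0.29, adjusted p = 0.0454). LOX and TLL2 were lower with the mimic than in mock cells (-0.67 and -0.63, adjusted p = 9.34e-05 and 0.000256).

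Of 9 fibril partners 2 were lower and 0 higher, the fibronectin gene FN1 (-1.09, adjusted p = 3.5e-07) and the fibrillin gene FBN1 (-0.27, adjusted p = 0.0403), while the small proteoglycan genes LUM and BGN changed by 0.19 and -0.13 without passing. Of 9 receptor genes, the integrin genes ITGA2 and ITGA1 were called, ITGA2 higher (0.22, adjusted p = 0.0112) and ITGA1 lower (-0.28, adjusted p = 0.046), with no single probe set of either passing, and ITGB1 and GP6 changed by -0.17 and 0.11 without passing. Of 13 breakdown genes 2 were higher and 3 lower. The collagenase gene MMP1 was higher (0.59, adjusted p = 0.000336), with its scrambled control arrays below mock (-0.77, adjusted p = 0.000446) and no call between mimic and mock (-0.19, adjusted p = 0.113). The inhibitor gene TIMP2 and the gelatinase genes MMP9 and MMP2 were lower (-0.37, -0.22 and -0.24, adjusted p = 0.00109, 0.00766 and 0.00973), although 1 of the 3 probe sets of TIMP2 was higher, and MMP13 was the other gene higher (0.50, adjusted p = 0.0241), named after its value was seen. Against mock FBN1, ITGA1 and MMP13 did not pass (-0.23, -0.20 and 0.40, adjusted p = 0.0688, 0.138 and 0.0567). For FN1, TIMP2 and MMP2 the scrambled control was below mock (-0.40, -0.34 and -0.19, adjusted p = 0.00165, 0.00624 and 0.0474). These genes were also lower with the mimic than in mock cells (-1.49, -0.71 and -0.44).

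**Figure D5:**
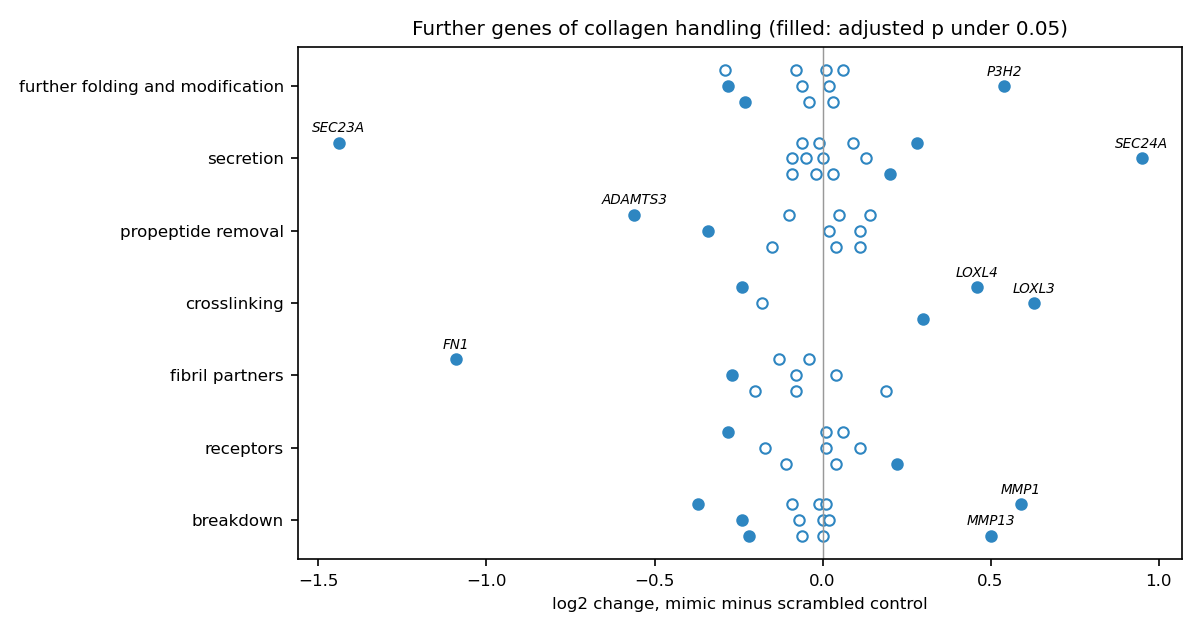
Log2 change for mimic minus scrambled control (horizontal axis) of the genes of 7 lists (rows), with filled points for those that passed and names for those that passed beyond 0.4 on either side. SEC23A at -1.44 and SEC24A at 0.95 lie at opposite ends of the secretion list.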

How the data were processed

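Gene expression of 9 arrays was taken from 1 deposited table of log2 values for 54675 probe sets. The probe summary and normalization behind it are not stated in the labels, and that the base is 2 is an assumption. The deposited log2 values are centred, with a median of exactly 0 in 100% of probe sets. More than one value was 0 in 48.89% of them, which can lower the spread. Per the file headers, all 9 columns belong to the 9 samples.

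The level class of each probe set was recovered from the step between stored single precision numbers, which doubles at 4 and 8 (98.1% of 6000 simulated classes recovered). Values of 0 and repeated values were left out of this step. The simulated probe sets were not given the additional 0 values of the deposited table, so the recovery for probe sets with several was not measured. Symbols came from the platform annotation of 2016. The 62 control probe sets, 1801 with several symbols and 11721 without one were not used for genes. A gene's value is the mean of its probe sets in its highest level class. The test was limma (version 3.58.1, R version 4.3.3), two-sided, by lmFit and eBayes over the 9 arrays, with Benjamini-Hochberg adjustment over 19775 genes, or over all probe sets for single probe sets, and a call at an adjusted p under 0.05. The fit was tested on simulated data. Tables were handled with pandas 2.3.3 in python 3.11.15.

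The members and gene lists were chosen with earlier results of these data known, so no result here counts as independent support. Values per array are given for the processing genes, for members called with a log2 change of at least 0.3 on either side, and for 14 chains whatever their change, of which COL17A1 had no usable probe set. From each further list up to 4 genes with the smallest p against the scrambled control are named. Replicate differences had an SD of 0.111 to 0.149 over all genes and 0.104 to 0.163 over the members, and at most 2.86% of genes held identical values in 2 arrays of a group. The number of arrays limits the precision. Alternatives were the replicate number as a block, the mean of all probe sets, quantile normalization, genes at a level of 8 or more alone, the 2 groups compared alone, a trended robust spread, and leaving out each array.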

Additional observations from a re-analysis of the deposited data

How the results depend on the processing

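Against the scrambled control, 7 of the 11 called members kept their call in all alternatives, against mock 11 of 19, and between the controls 5 of 12. Single values lost their call in 9 of 175, 33 of 299 and 39 of 190 cases, and 0 reversed. Counts of members lower ranged from 5 to 7 against the scrambled control, from 10 to 14 against mock and from 7 to 10 between the controls when 1 array was left out. Members higher between scrambled control and mock, 2 in all, ranged from 0 to 2 when 1 array was left out, and were 0 with the replicate block, 0 with genes at a level of 8 or more alone, where neither gene is tested, and 0 with the 2 groups alone. At a level of 8 or more alone, 3 members were higher with the mimic against mock, since COL24A1 and COL23A1 are not tested there. Without mock replicate 3 and mimic replicate 1, left out together after seeing the data because they deviated together (r = 0.244 across genes, which are not independent replicates), members higher and lower were 4 and 6 against the scrambled control, 4 and 13 against mock, and 0 and 8 between the controls. Among arrays with the same replicate number r ran from -0.156 to 0.116, so they were not treated as pairs. Low correlations cannot exclude that arrays of 1 number share an origin. With the replicate block 4 members were higher and 7 lower against the scrambled control, 4 and 14 against mock, and 8 lower between the controls. The arrays' signal over background is unknown, which limits what a dim probe set can show.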
